A study of Mus musculus with 3 samples.

Results

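Cytosolic ribosomal protein genes were read by 49 of the 12422 non-control probe sets on the array, from 35 of the 8251 genes with a probe set of their own. A probe set is the group of short oligonucleotides that reads a transcript on an Affymetrix array, here the MG-U74Av2 type. The members were all probe sets that the platform annotation gives to a single gene whose symbol is that of a ribosomal protein of the large subunit (Rpl and Rplp, 17 genes, 22 probe sets) or of the small subunit (Rps and Rpsa, 18 genes, 27 probe sets). The rule used symbols and no intensity. The RefSeq table lists 84 protein-coding genes with such symbols, of which 34 were members, 30 were annotated only on probe sets shared with other genes, and 20 were on neither kind. The remaining member, Rps4l, is listed there as a transcribed pseudogene.

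The samples were 3 pools of total RNA from mouse neural retina at postnatal day 7 (P7), each made from 3 to 4 mice and collected between 1 and 2 pm. The mice were wild-type littermates of Rp1-/- animals, on a mixture of the 129/SvEv and C57BL/6 strains. All pools form 1 group, so no conditions were compared, and the open questions were which ribosomal protein probe sets had signal, how the probe sets of 1 gene compared, and how far the pools differed. Pools 1, 2 and 3 are numbered as names only.

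Ribosomes are built from ribosomal RNA and a fixed set of small proteins. The small subunit decodes the messenger RNA, and the large subunit joins the amino acids and carries a flexible stalk that recruits elongation factors. Their messages are among the most abundant in most cells, the retina included, and most start with a run of pyrimidines, the terminal oligopyrimidine or TOP element, through which their translation is controlled together. Many of these genes have processed pseudogenes, near-identical copies in the genome, so that a probe can often match more than 1 locus.

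Values are the authors' intensities after each array was scaled to a common median, given as mean ± SD over the 3 pools (n = 3). A probe set counted as above background when it passed a bar in each of the 3 pools. The bar was the 90th percentile of 57 measured genes that mark liver, pancreas, testis and other organs, and stood at 263.5, 272.5 and 280.8 in pools 1, 2 and 3. All 11 measured marker genes of retinal cells were above it. Intensity depends on the oligonucleotides as well as on the transcript. A difference between probe sets therefore need not be a difference in transcript amount, and a reading below the bar may come from poor oligonucleotides. Precision was limited by having 3 arrays, and the spread between pools may be partly technical. In pooled tissue, fewer cells of a type and less RNA per cell cannot be told apart.

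The means of the ribosomal protein probe sets left a gap just above the bar. Members above this gap are called bright and those below it dim. Of the 49, 25 (51.0%) were above background in all pools, against 40.3% of all probe sets. Another 20 (40.8%) were below the bar in all pools, against 48.7% of all probe sets, and 4 passed it in 1 pool only. These shares are close to those of the whole array, whereas the intensities were spread differently. Means of members ran up to 302.1 in those not above background and began at 910.4 in those above it. The interval between these values, set by the members nearest to it and therefore empty of members, held 3145 of all probe sets (25.3%). No member had a mean between 952.2 and 2512.5 either, so the bright members were not of 1 level. Means over 2000 were reached by 21 members, against 6.51% of all probe sets. Among the 100 brightest probe sets 13 were members. Although they are 0.394% of probe sets, the members held 2.65%, 2.79% and 2.70% of the summed intensity in pools 1, 2 and 3.

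**Figure D1:**
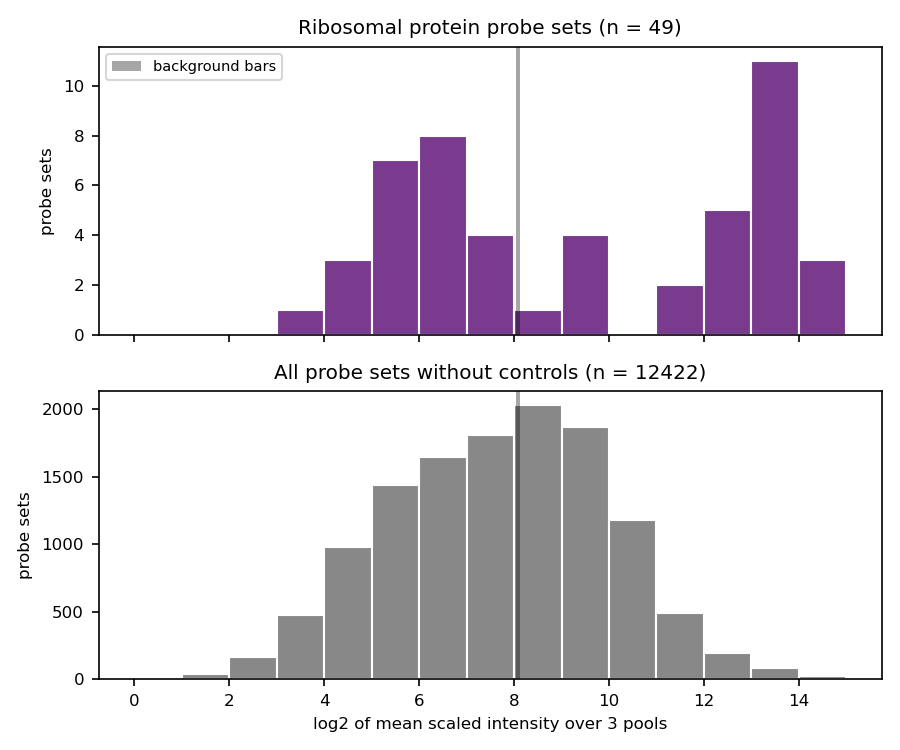
Number of probe sets (vertical axis) by the log2 of their mean scaled intensity over the 3 pools (horizontal axis), for the 49 ribosomal protein probe sets in the upper panel and all 12422 in the lower panel, with the background bars as a dark band. The members' means end at 302.1 below the gap and start again at 910.4, and 25.3% of all probe sets lie between these values.

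The brightest members included both subunits. Rpl41, which encodes a very small basic protein of the large subunit, had intensities of 23269, 34249 and 28239 in pools 1, 2 and 3 (28586 ± 5498), from a probe set of the family type. Rplp0, the protein at the base of the ribosomal stalk, was at 14138, 18683 and 15362 (16061 ± 2352). It was the only stalk gene among the members, as Rplp1 was annotated on a shared probe set and Rplp2 was not analysed here. Rps18, a protein of the small subunit head, was at 11544, 13705 and 11741 (12330 ± 1195). Each of these lay at or above the 99.6th percentile of all probe sets in mean intensity, and pool 2 was the highest for each under the scaling used, an order that changes with the scaling as given below.

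Further small-subunit genes were close to this level. Rps4x, the X-linked gene of a small-subunit protein, was at 10165, 11850 and 10022 by its bright probe set (10679 ± 1017). Rps3a1 was at 9115, 12055 and 8851 (10007 ± 1778). Rps3, which lies where the messenger RNA enters the ribosome, was at 8569, 11557 and 8788 (9638 ± 1666). Under the same scaling pool 2 was again the highest. Rps7 had a mean of 9455 ± 957, and Rps10, one of the genes mutated in the human disorder Diamond-Blackfan anaemia, of 8417 ± 1595.

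The brightest large-subunit members after Rpl41 and Rplp0 were Rpl7 by one probe set (11957 ± 359), Rpl8 (7691, 11064 and 8637 in pools 1, 2 and 3, 9130 ± 1740), Rpl19 by one probe set (8752 ± 951), Rpl10a by its brighter probe set (6638 ± 1511), Rpl7a (6431 ± 852) and Rpl6 (5892 ± 805). Which gene the Rpl7 probe set reads is uncertain, as given below. Rpl10a encodes the protein of the mobile L1 stalk, next to the site where transfer RNA leaves. Rpl37a, a zinc-binding protein of the large subunit, was at 4582 ± 680, and Rps19, the gene most often mutated in Diamond-Blackfan anaemia, at 3882 ± 295. Rpsa, also known as the laminin receptor, was at 2351, 2824 and 2363 (2512 ± 269). It was the dimmest of the 21 members with means over 2000.

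The other 4 members above background had means under 2000. Rpl22, the large-subunit gene required for a lineage of T cells in mice, was at 952 ± 184, Rps27 at 924 ± 162, and Rpl13a, whose protein can leave the ribosome to silence inflammatory messages, at 910 ± 32.7. The other was the brighter probe set of the pseudogene Rps4l, at 939 ± 35.9.

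**Figure D2:**
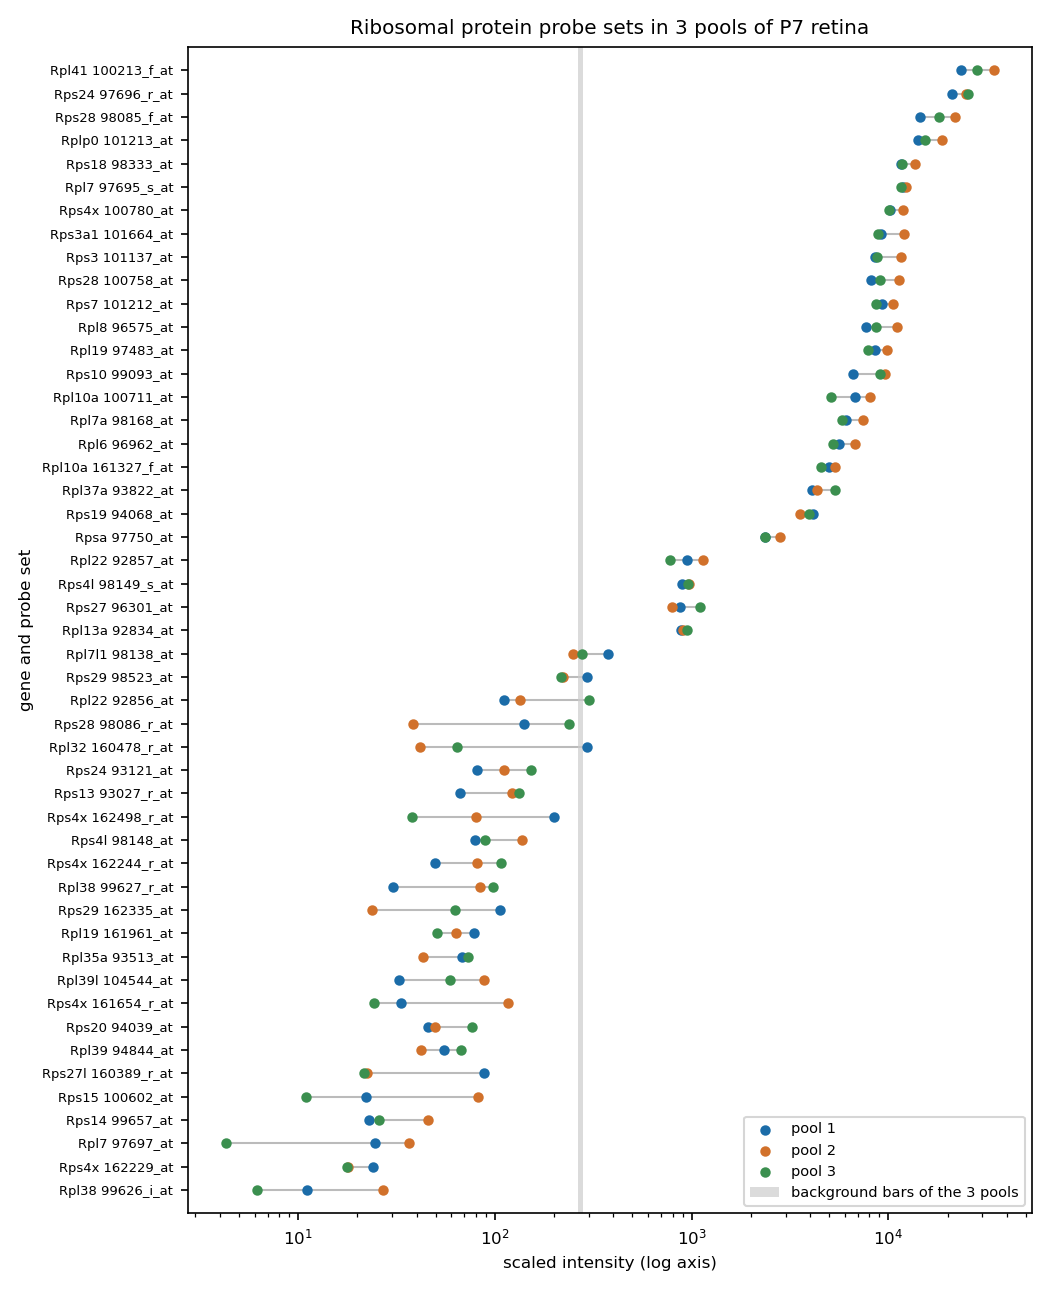
Scaled intensity (horizontal log axis) of each of the 49 ribosomal protein probe sets, labelled by gene and probe set and ordered by mean, with 1 point for each of the 3 pools. The grey band spans the background bars of the pools. The points of each bright probe set span at most 1.59-fold. Those of dim ones span from 1.36-fold (a probe set of Rps29) to 8.43-fold (one of Rpl7). No member has its mean between 302.1 and 910.4.

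Sequences around the annotated start are shown for the first genes by brightness that the promoter table holds, because the TOP element lies there, and for Rpl7a, added after its sequence was seen because its run is the longest at any of the 37 starts. For Rps24 the first of 2 listed starts is given. They run from 15 bases before the start to the 15 bases that begin the transcript, 5′ to 3′ on the gene's strand, from RefSeq on build GRCm38.p6, with the longest run of C and T in capitals.
Rpl41, chr10:128549154-128549183, minus strand: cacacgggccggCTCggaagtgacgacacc
Rps24, chr14:24490663-24490692, plus strand: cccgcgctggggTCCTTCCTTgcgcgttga
Rps28, chr17:33824548-33824577, minus strand: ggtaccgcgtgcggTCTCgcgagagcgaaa
Rplp0, chr5:115559452-115559481, plus strand: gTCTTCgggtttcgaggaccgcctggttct
Rps18, chr17:33955651-33955680, minus strand: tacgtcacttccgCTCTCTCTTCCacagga
Rps4x, chrX:102189377-102189406, minus strand: ctgaggctgggcggagcaacccaggCTCCa
Rpl7a, chr2:26910792-26910821, plus strand: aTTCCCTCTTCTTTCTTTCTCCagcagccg

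Rps24, Rps18 and Rpl7a had runs of 9, 11 and 21 pyrimidines that span the annotated start. Within the windows shown, Rpl41, Rps28, Rplp0 and Rps4x had longest runs of 3, 4, 5 and 4. From 50 bases before to 50 after the start, the longest runs of these 4 genes were 10, 5, 7 and 7. Annotated starts were not checked against measured transcript ends, so a short run does not show that the TOP element is absent. The promoter table held 28 of the 35 genes, with 37 annotated starts. Starts of 1 gene can lie close together, so that a run or motif can be counted more than once. The 3 starts of Rpl35a, for example, each had a longest run of 13 in the wider window. Shares were taken over starts and not over genes. In the window from 50 bases before to 50 after the start, a run of 8 or more pyrimidines was present at 24 of the 37 (64.9%), against 35.7% of all 32851 promoters in the table. The median longest run was 10 bases for members and 7 for all promoters.

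Motifs were counted on both strands from 250 bases before to 50 after the start. CTTTCC, a short form of the oligopyrimidine run, was in 20 of the 37 (54.1%) and in 26.6% of all promoters. CCGGAAG, the core bound by GABP and other Ets factors, was in 12 (32.4%) and in 8.86% of all. GCCATNTT, the YY1 motif, was in 10 (27.0%) and in 6.05% of all, and GGGCGG, the Sp1 motif, in 21 (56.8%) and in 35.7%. TATAAA was in 4 (10.8%) and in 13.6%. Matches of CTTTCC and GCCATNTT overlapped in 1 promoter. These counts describe letters in the annotated windows, which can overlap for starts of 1 gene, and binding was not measured.

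Of the 10 genes with 2 or more probe sets, 6 had probe sets on both sides of the bar. At least 1 was above background in all pools and at least 1 below the bar in all pools. These genes include Rpl7, Rps24 and Rps4l, whose bright probe sets are of uncertain source, as given below. The share was 34.4% of the 2073 such genes on the whole array, without matching for the number of probe sets per gene. The difference was not tested. Rps4x had 5 probe sets, of which 100780_at was bright as given above and 4 were dim. The intensities of 162498_r_at were 199.9, 80.3 and 37.8 in pools 1, 2 and 3, and those of 162229_at were 24.1, 17.9 and 17.6. The means of 162244_r_at and 161654_r_at were 79.1 and 57.9.

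Rpl7, a large-subunit protein, was at 11870, 12352 and 11650 by probe set 97695_s_at and at 24.7, 36.4 and 4.3 by 97697_at. Rps24, a small-subunit gene, was at 21129, 24722 and 25237 by 97696_r_at and at 80.9, 111.1 and 152.5 by 93121_at. The bright probe sets named for Rpl7 and for Rps24 carry the same sequence accession in the annotation. On the whole array 9 of the 338 accessions found on more than 1 single-gene probe set were tied to different symbols. It is therefore uncertain which of both genes either bright probe set reads. Without its bright probe set, neither Rps24 nor Rpl7 has one above background.

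Rps28, among the smaller proteins of the small subunit, had 3 probe sets. Those named 98085_f_at and 100758_at were bright, at 14499, 21692 and 18109 and at 8180, 11325 and 9028 in pools 1, 2 and 3, whereas 98086_r_at was at 140.5, 38.3 and 238.8. The first and the last of these carry the same accession, so that source sequence gave both a bright and a dim reading. Rpl19 was at 8578, 9778 and 7901 by 97483_at and at 78.2, 63.7 and 50.6 by 161961_at. The pseudogene Rps4l was at 897.9, 964.4 and 954.5 by 98149_s_at and at 78.8, 136.5 and 89.1 by 98148_at. Rps4x is a close relative, and a probe set of type s may match several transcripts, so the source of the brighter reading is uncertain.

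The other 4 genes with several probe sets had none on opposite sides of the bar in all pools. Both probe sets of Rpl10a were bright, the second, of the family type, at 4988, 5365 and 4529. In both, pool 2 was highest and pool 3 lowest. The second probe set of Rpl22 was at 111.0, 133.8 and 299.1, above the bar in pool 3 only. Rps29 was at 293.7, 221.8 and 216.1 by one probe set, above the bar in pool 1 only, and at 106.7, 23.6 and 62.9 by the other. Rpl38, the gene altered in the Tail-short mouse, was dim in both, at 30.2, 83.9 and 97.6 by one and at 11.1, 27.1 and 6.2 by the other.

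**Figure D3:**
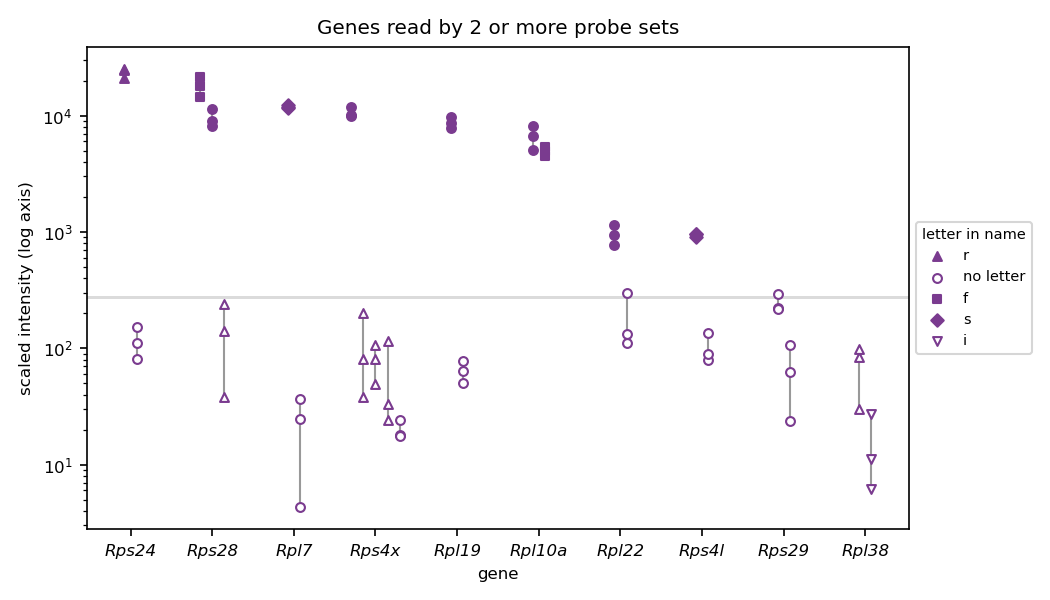
Scaled intensity (vertical log axis) of every probe set of the 10 ribosomal protein genes with 2 or more, with a column of 3 points (the pools) for each probe set. Filled symbols are probe sets above background in all 3 pools, the symbol's shape gives the letter in the probe set's name, and the grey band spans the background bars. Rps24, Rps28, Rpl7, Rps4x, Rpl19 and Rps4l have probe sets both far above and below the band.

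In all, 23 of the 35 genes had a probe set above background in all pools, 11 of 17 in the large and 12 of 18 in the small subunit, against 48.7% of all 8251 genes. The 12 genes without one were Rpl7l1, Rps29, Rpl32, Rps13, Rpl38, Rpl35a, Rpl39l, Rps20, Rpl39, Rps27l, Rps15 and Rps14. Rpl7, Rps24 and Rps4l were counted as above background by bright probe sets of uncertain source. Of the 25 genes with 1 probe set, 15 were above background and 10 were not. Rps14, the small-subunit gene within the region lost in the human 5q- syndrome, was at 22.9, 45.7 and 25.8 in pools 1, 2 and 3. Rps15, which reaches towards the decoding site, was at 22.2, 81.8 and 11.0. Rpl39, a protein lining the exit tunnel, was at 55.1, 42.3 and 66.9.

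The other dim genes included parts of every ribosome too. Rps20 was at 45.9, 49.6 and 76.2, Rpl35a, a further Diamond-Blackfan anaemia gene, at 67.8, 43.0 and 73.0, and Rps13 at 66.1, 121.7 and 132.5. Rpl32 was at 293.8, 41.5 and 63.8, above the bar in pool 1 only. Readings below the bar have no reliable order. At least 1 pool was at or under 42.2, the 20th percentile of all values, for 13 members, and 3 members were so in all pools.

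Paralogs are genes related by duplication, and 4 of the listed ones were members. The pseudogene Rps4l had 1 of its probe sets above background, as given above, and the 3 others had none. Rpl39l, a paralog of Rpl39 known for its expression in testis, was at 32.7, 87.8 and 58.8. Rps27l, a paralog of Rps27 that is a target of p53, was at 88.4, 22.4 and 21.6. Rpl7l1, a relative of Rpl7, stood near the bar at 377.5, 250.7 and 278.1, above it in pool 1 only. Rpl22l1 was annotated on a shared probe set, and Rpl3l, Rpl10l and Rps4y were not analysed here. Of the fusion genes that encode a ribosomal protein joined to ubiquitin or a ubiquitin-like protein, Fau alone had a single-gene probe set, and it was dim at 93.0, 134.0 and 76.3.

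The share above background is given by type of probe set. Letters in the name mark how the oligonucleotides were chosen: f and s for sets that may match a family or several transcripts, r and i for sets made under relaxed rules or with fewer oligonucleotides. All 3 members of type f and both of type s were above background, against 33.2% and 39.4% of all probe sets of these types. Of 9 members of type r 1 was above it, against 20.6% of all of that type, and the 1 of type i was not, against 64 above it of all 256. Of the 34 without a letter 19 (55.9%) were above it, against 43.3% of all such probe sets. Among 6 members built from sequences with an accession of the AV series 1 was above background, against 15.2% of all such probe sets, a grouping made after the values were seen. An accession was listed for 39 of the 49 members, and those without one were counted as outside that series. Without any letter and outside the series so counted, 19 of 32 members were above background and 10 were below it in all pools. The share above was 43.8% of all such probe sets. Dim readings were therefore present in the plainest design as well.

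Another 39 probe sets were annotated with a ribosomal protein gene together with other loci, and every one also listed a pseudogene, a retrotransposed copy or a predicted locus. Of these 39, 30 (76.9%) were above background in all pools and 5 were below it in all pools, beside 51.0% above background for the members and 40.3% for all probe sets. The difference was not tested. They accounted for 17 of the 100 brightest probe sets and for 2.68%, 2.90% and 2.71% of the summed intensity in pools 1, 2 and 3. No gene was named from these probe sets. One member, Rps27, was annotated on such a probe set too.

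The 3 pools differed little in the bright members. None of the 25 above background had a range over the pools above 2-fold, against 4.19% of all probe sets above background. Their ranges ran from 1.06-fold (Rpl7) to 1.59-fold (Rpl10a), with a median of 1.29-fold, against 1.37-fold for all above background. The median SD on the log2 scale was 0.192 for these members and 0.238 for all. The median mean intensity was 8752 for these members and 819.0 for all above background, and these comparisons were not matched for level. Rpl10a (6738, 8096 and 5079), the f-type probe set of Rps28, Rps10 (6602, 9591 and 9059), Rpl22 (943.8, 1140 and 772.8) and Rpl41 had the widest log2 SDs, from 0.279 to 0.339. After them came Rpl8, Rps3a1, Rps27, the second bright probe set of Rps28, and Rps3, at 0.239 to 0.268.

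Excess spread was tested on the 6211 probe sets with the highest means. An F test set each variance against the prior variance that limma estimated for its level. Of these probe sets 1.34% had a Benjamini-Hochberg adjusted p below 0.05. Of the 27 members tested, 0 had one and 0 had an unadjusted p below 0.05, against 6.76% of all tested with such an unadjusted p. The smallest unadjusted p of this F test, 0.238, was that of Rpl10a, with an adjusted p of 0.992. The remaining 22 members were too dim to be tested. A p that misses the threshold does not show that the pools were equal.

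Between pools, the bright members moved with the scaling of the arrays. With scaling to the median their median log2 deviation from the mean of the pools was -0.07, 0.17 and -0.06 in pools 1, 2 and 3, against -0.05, 0.12 and -0.08 for all probe sets above background. Relative to those, the members stood at -0.02, 0.05 and 0.01. Pool 2 was the highest for 20 of the 25, against 54.1% of all above background, but it was so for 16 with the deposited values as they stand (33.7% of all) and for 4 after quantile normalisation (33.5% of all), when pool 1 was the highest for 16. Large-subunit members had medians of -0.05, 0.21 and -0.10 and small-subunit members of -0.09, 0.16 and -0.06, while single probe sets ranged from -0.20 to 0.31 in pool 2. Rps19 and Rps27 were lowest in pool 2 with scaling, at 4143, 3562 and 3941 and at 871.6, 795.9 and 1106.

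Across the 25 bright members, which share arrays and are not independent, Pearson's r of log2 intensities was 0.993, 0.989 and 0.986 between pools 1 and 2, 1 and 3, and 2 and 3. It was 0.947, 0.939 and 0.952 over all probe sets above background. The members were brighter, as given above, and r depends on the range of levels, so these values are not like for like. The median absolute log2 difference of the members was 0.264, 0.119 and 0.282 for these pairs, against 0.284, 0.251 and 0.289 for all above background. The correlation was highest for pools 1 and 2 and the difference smallest for pools 1 and 3. The difference depends on the scaling factors, which were 0.962 and 0.959 for pools 1 and 3 and 1.09 for pool 2.

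**Figure D4:**
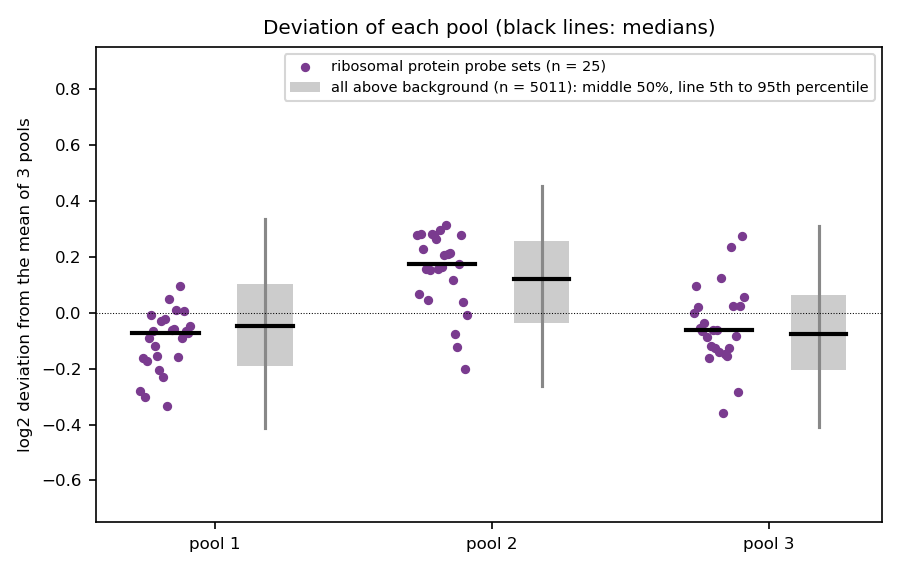
Log2 deviation of each pool from the mean of the 3 pools (vertical axis) for the 25 ribosomal protein probe sets above background (points, left in each pair) and for all 5011 probe sets above background (bars, the middle 50%, with lines from the 5th to the 95th percentile). Black lines are medians, which for the members are -0.07, 0.17 and -0.06 in pools 1, 2 and 3.

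Further values of the pools stand beside this order. The 3' to 5' ratio of the Actb control transcript, a sign of RNA length, was 1.81, 1.27 and 1.30 in pools 1, 2 and 3, and that of Gapdh 0.874, 0.788 and 0.812. The summed intensity of 12 lens genes, 6 of them above background, was 26967, 127518 and 136902, lowest in pool 1. That of 6 red blood cell genes, 2 of them above background, was 4194, 8165 and 4326. That of the 11 retinal marker genes was 45637, 53060 and 45913. Both sums were highest in pool 2 with scaling to the median, as were most bright ribosomal protein members. For the members that order changes with the scaling, as given above. The part of these values in the result was not tested. The 3' control probe set for 18S ribosomal RNA, the RNA of the small subunit, read 278.7, 218.4 and 290.7, around the bar, and those for its middle and 5' parts read at most 74.4.

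The median mean intensity was 910.4 for the cytosolic ribosomal protein probe sets, beside 683.4 for other TOP genes, 424.7 for ribosome assembly genes and 487.3 for mitochondrial ribosomal protein genes. The first of these is 1 probe set at the edge of the gap. It was 302.1 without the bright probe sets of Rps24 and Rps4l, whose source is uncertain, and with that of Rpl7 kept. The medians therefore give no order of the lists. At least 1 probe set was above background for 23 of 35 (65.7%) ribosomal protein genes, against 12 of 16 measured genes from a list of other TOP messages. Among them Eef1a1, the elongation factor that brings transfer RNA, was at 25629, 37984 and 34914 in pools 1, 2 and 3. Eef2, the translocation factor, was at 6498, 6726 and 6312, Eef1d at 969.1, 927.2 and 595.0, and Eif3e at 855.9, 683.2 and 648.3. Of 39 measured ribosome assembly genes 30 (76.9%) were above background, and their first listed members are assembly factors of the nucleolus. Nucleolin (Ncl) was at 2941, 3437 and 2733 in pools 1, 2 and 3, the RNA methylase gene Fbl at 1426, 1272 and 1201, Npm1 at 3229, 2921 and 2749, and Nop56 at 883.8, 876.6 and 571.0.

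Mitochondrial ribosomal protein genes, which serve the separate ribosome of that organelle, were above background for 45 of 60, with 48 of 72 probe sets. Their highest means were those of Mrpl18 (2020 ± 231, from a probe set of the family type) and Mrpl52 (1775 ± 126). Probe sets with a mean over 2000 numbered 21 of 49 for the cytosolic ribosomal protein genes, 1 of 72 for the mitochondrial ones, 3 of 53 for assembly genes and 8 of 24 for other TOP genes. Below the bar in all pools were 20 of 49 cytosolic probe sets, against 15 of 72, 18 of 53 and 9 of 24 in the same lists. Differences between these lists were not tested. No probe set of the 3 other lists had excess spread by the same F test, among 55, 35 and 15 tested. The log2 SD of those above background had medians of 0.195, 0.216 and 0.251, against 0.192 for the cytosolic members.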

How the data were processed

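Total RNA from 3 retina pools was measured on MG-U74Av2 arrays, the type the sample titles name. The deposited values were the authors' linear intensity of each probe set. Their means after trimming 2% at each end were 500.2, 500.3 and 500.2, from which scaling per array is inferred. Which software and background correction made them is not given in the sources used here. Detection calls were not used. Pairs of pools shared 11 to 12 exactly equal values among 12488 probe sets.

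After 66 control probe sets were left out, each array was scaled to the mean of the 3 medians (log2 shifts of -0.06, 0.12 and -0.06). For log2 values, intensities were floored at the 20th percentile, 42.2. Gene names came from the platform annotation (10833 probe sets with 1 gene, 396 with several, 1193 unnamed here). Updating by gene ID through RefSeq changed 0 member symbols. The bar used 57 of 65 listed genes, with 1 probe set each.

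Excess spread was tested in R 4.3.3 on the brightest 50% of probe sets, by an upper-tail F test of each variance. The prior variance it was set against came from limma 3.58.1 (squeezeVar, robust, level as covariate). Benjamini-Hochberg adjustment was over all probe sets tested. The F test was also run on simulated data with 200 changed probe sets. Those values were normal draws with the prior variance itself, which real arrays need not follow. No limit of detection for the members is drawn from them. The variance had 2 residual degrees of freedom. Named were the 10 brightest probe sets, all genes with probe sets on both sides of the bar or none above it, the 10 widest of those above, the paralog, stalk and fusion lists, and the first 4 genes above background of 2 related lists. The 2 brightest mitochondrial genes and further members were added. Members and lists were chosen with earlier results of these data known.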

Additional observations from a re-analysis of the deposited data

How the results depend on the processing

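The number of ribosomal protein probe sets above background was 25, and stayed at 25 in number under 7 of 9 alternatives: the 95th percentile as the bar, no further scaling, quantile normalisation, updated symbols, and each pool left out in turn. It was 28 with the 75th percentile and 19 with only probe sets that have no letter. The number of genes was 23, and 25 and 19 under those last 2. The number of genes with probe sets on both sides of the bar was 6, and 2 to 7 under the alternatives: it was 2 when only probe sets with no letter were used, as fewer probe sets were then compared. No member had excess spread under any of 11 alternatives, while the count over all probe sets was between 0 and 84. Without the filter on dim probe sets 8 of 49 members (16.3%) had an unadjusted p below 0.05, beside 1612 of all 12422 probe sets, and under the other 10 none had. The median log2 deviation in pool 2, 0.17, was -0.03 after quantile normalisation and 0.05 with the deposited values as they stand. That in pool 1 ran from -0.13 to 0.07 and that in pool 3 from -0.13 to 0.01. Leaving out another pool in turn, added after the data were seen, gave 0.13 for pool 2 in both cases. The median mean intensity of the members, 910.4, was 302.1 without the bright probe sets of Rps24 and Rps4l, also added after the data were seen. Without these probe sets, 23 of the remaining 47 members were above background. No paired analysis was possible because all samples form 1 group. With 3 arrays and no depth or detection call, dim intensities have no reliable order.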
